A study of Rattus norvegicus with 8 samples.

Results

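The genes described here are 4 standard markers of inhibitory neurons in the rat brain, Gad1 (ENSRNOG00000000007), Gad2 (ENSRNOG00000018200), Pvalb (ENSRNOG00000006471) and Sst (ENSRNOG00000001837). They were taken by gene ID and not by a rule on their values, though they were chosen with earlier results of these data known. All 4 were found among the 31185 genes of the deposited table. The table gives IDs only. The pairing of IDs with symbols came with the list of genes, and it was not checked against an annotation, because the symbol table used here held no Ensembl IDs. RNA had been sequenced from prefrontal cortex (PFC) and hippocampus dissected in week 7 from adult males of the outbred Sprague-Dawley strain. Each tissue had 4 groups of 1 library: unstressed with saline (control), and chronically stressed (labelled CMS) with saline, methylglyoxal (MGO, a reactive by-product of glycolysis) or luteolin (a plant flavonoid). Drugs were given daily by intraperitoneal injection in the last 3 weeks of stress, luteolin at 10 mg/kg. The labels give MGO both as 5 mM/kg/day and as 100 mM/kg. The protocol names 1 unstressed and 2 stressed rats as the source of both tissues and does not mention a luteolin rat, so whether the luteolin libraries come from the same animal is not stated. A difference between treatments therefore has no replicate check and no test.

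Inhibitory neurons release GABA, which they make from glutamate with glutamate decarboxylase. Gad1 encodes the GAD67 form of this enzyme, found throughout the cell, and Gad2 encodes the GAD65 form, which is concentrated at synaptic terminals. Most inhibitory neurons of cortex and hippocampus carry both. Pvalb encodes parvalbumin, a calcium-binding protein of fast-spiking interneurons that contact the cell body and axon of their targets. Sst encodes the precursor of somatostatin, a peptide of interneurons that mainly contact dendrites. Parvalbumin and somatostatin cells are largely separate classes. In bulk tissue, fewer cells of a class and less RNA per cell cannot be told apart.

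Values are fragments scaled to gene length and library depth (FPKM), a unit inferred from the numbers, and they allow levels of different genes to be compared per length. The sums of FPKM per library ran from 300281 to 352740. Absolute depth is unknown. Relative depth was read from the most common ratio of low values in control PFC to those in each library. With control PFC set to 1, it ran from 0.85 to 1.34. The CMS + luteolin hippocampus library had the highest relative depth and the lowest sum, and it differed by at least 2-fold from the other 3 hippocampus libraries in 6.61% to 8.11% of 12155 genes, against 5.66% to 6.01% among those 3. The descriptions of both CMS + saline libraries bear a code that differs from that of the remaining 6, and the treatment and this code cannot be told apart. Markers of other cell types and of the tissues themselves were not evaluated, since none of the 31185 IDs could be matched to a symbol.

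Sst had a wide spread between hippocampus libraries, and Pvalb had each PFC value above each hippocampus value. The promoter sequences of these 2 genes are shown for context. They are from RefSeq, build GRCr8, matched by symbol, and are not the Rnor_6.0 build named for the study. Capitals in the Sst sequence (chr11:90461296-90461555, plus strand) mark TAATTA, a core bound by many homeodomain proteins, and TGACGTCA, the palindrome known as the cAMP response element. Capitals in the Pvalb sequence (chr7:111666290-111666539, minus strand) mark GGGCGG, the GC box. Both are written 5′ to 3′ and hold the 250 bases before the annotated start, with 10 further bases for Sst.
Sst: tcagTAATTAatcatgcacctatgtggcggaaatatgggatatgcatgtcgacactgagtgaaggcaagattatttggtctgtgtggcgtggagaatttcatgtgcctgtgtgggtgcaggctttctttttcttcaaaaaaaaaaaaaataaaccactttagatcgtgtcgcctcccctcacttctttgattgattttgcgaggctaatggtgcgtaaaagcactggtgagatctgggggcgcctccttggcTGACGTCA
Pvalb: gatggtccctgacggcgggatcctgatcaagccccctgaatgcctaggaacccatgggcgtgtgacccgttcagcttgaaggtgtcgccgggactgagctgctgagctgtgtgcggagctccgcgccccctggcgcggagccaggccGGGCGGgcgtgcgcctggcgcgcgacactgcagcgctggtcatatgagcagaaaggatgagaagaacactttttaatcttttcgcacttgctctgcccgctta
Windows of 300 bases (250 before and 50 after the start) of 33469 promoters were searched on both strands for the 3 motifs above, for TATAAA (the TATA box) and for CCAAT (the CCAAT box), and no matches overlapped in the 4 genes. TGACGTCA was in 1.83% of the windows and, of the 4 genes, in Sst, where it begins at base 3 of the annotated transcript. Whether transcription starts at the annotated base in these tissues was not tested. TAATTA was in 5.36% of the windows and in Sst. GGGCGG was in 33.1% and in Gad1 and Pvalb, TATAAA in 14.2% and in Gad1, and CCAAT in 37.5% and in Gad2. These are matches of letters and no measure of binding.

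All 4 genes were abundant in most libraries. In 5 of 8 libraries their order from high to low was Sst, Pvalb, Gad1 and Gad2. Sst was above Pvalb in 6 of 8 libraries, Pvalb above Gad1 in 7 and Gad1 above Gad2 in 7. The exceptions lay in 3 libraries: CMS + MGO PFC, where Pvalb was above Sst, CMS + luteolin hippocampus, where Gad1 was above Pvalb, and CMS + MGO hippocampus, where Sst came last and Gad2 was above Gad1.

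**Figure D1:**
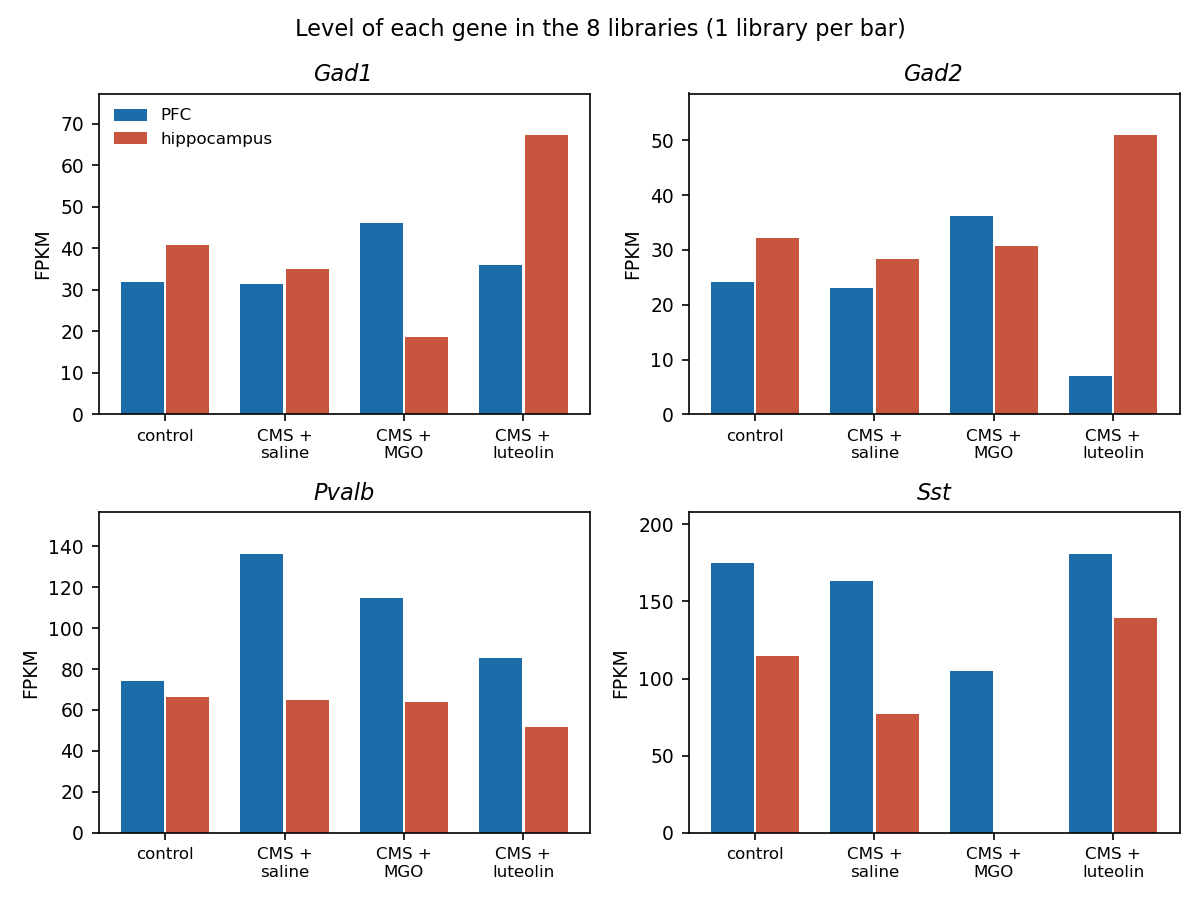
Level of Gad1, Gad2, Pvalb and Sst in FPKM (vertical axis, from 0, on its own scale in each panel) by treatment, with 1 bar per library, blue for PFC and red for hippocampus. Each bar is a single library and has no error bar. Sst is at 0.0504 FPKM in the CMS + MGO hippocampus library, too low for its bar to be seen, and Gad2 is at 6.99 FPKM in the CMS + luteolin PFC library.

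Gad1 was at 31.9 FPKM in control PFC, 31.5 with CMS + saline, 46.2 with CMS + MGO and 35.9 with CMS + luteolin. In hippocampus the values were 40.9, 35.1, 18.7 and 67.3 FPKM in the same order. The PFC libraries thus stayed within a narrow band apart from a higher MGO library, whereas the hippocampus libraries spread widely, with MGO lowest and luteolin highest. The PFC mean was 36.4 ± 6.86 FPKM and the hippocampus mean 40.5 ± 20.2 FPKM (SD, n = 4, treatments included). The tissues overlapped. The range of Gad1 over the 4 hippocampus libraries was 1.79 on the log2(FPKM + 1) scale, where the median gene had 0.46 and 5.73% of genes a range as wide. In PFC its range was 0.54, reached by 34.9% of genes.

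In PFC Gad2 was at 24.1 FPKM in control, 23.0 with CMS + saline, 36.2 with CMS + MGO and 6.99 with CMS + luteolin. In hippocampus it was at 32.2, 28.3, 30.8 and 50.9 FPKM. Its low library was CMS + luteolin PFC and its high library CMS + luteolin hippocampus, so the lowest and highest of the 8 values were both under luteolin. Its mean was 22.6 ± 12.0 FPKM over the PFC libraries and 35.5 ± 10.4 FPKM over those of hippocampus (SD, n = 4 each). The ranges of the tissues overlapped. In PFC the range of Gad2 was 2.22 on the log2 scale, against a median of 0.41 over all genes, and 3.86% of genes had a range as wide. In the CMS + luteolin PFC library, 22 of the 2514 genes at 20 FPKM or above in the other 3 PFC libraries were at least 3-fold below the lowest of those, Gad2 among them. The corresponding counts in the other 3 PFC libraries were 16 to 23 (limits chosen after the values were seen).

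The ratio of both decarboxylases within a library does not depend on how the library was scaled. The values of Gad1 carry more than 6 decimals, while those of Gad2, Pvalb and Sst do not. Whether Gad1 values were made in the same way is not stated, which limits all ratios to Gad1. Gad2 to Gad1 was 0.76 in control, 0.73 in CMS + saline and 0.78 in CMS + MGO PFC. It was 0.79 in control, 0.81 in CMS + saline and 0.76 in CMS + luteolin hippocampus. These 6 libraries lay between 0.73 and 0.81 although Gad1 itself ranged from 31.5 to 67.3 FPKM among them. The ratio was 0.19 in CMS + luteolin PFC, where Gad2 was low and Gad1 was at 35.9 FPKM, within the range of the other PFC libraries. It was 1.65 in CMS + MGO hippocampus, where Gad1 was low and Gad2 was at 30.8 FPKM, within the range of the other hippocampus libraries. In each of these 2 libraries only 1 of the genes encoding the enzyme was low.

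**Figure D2:**
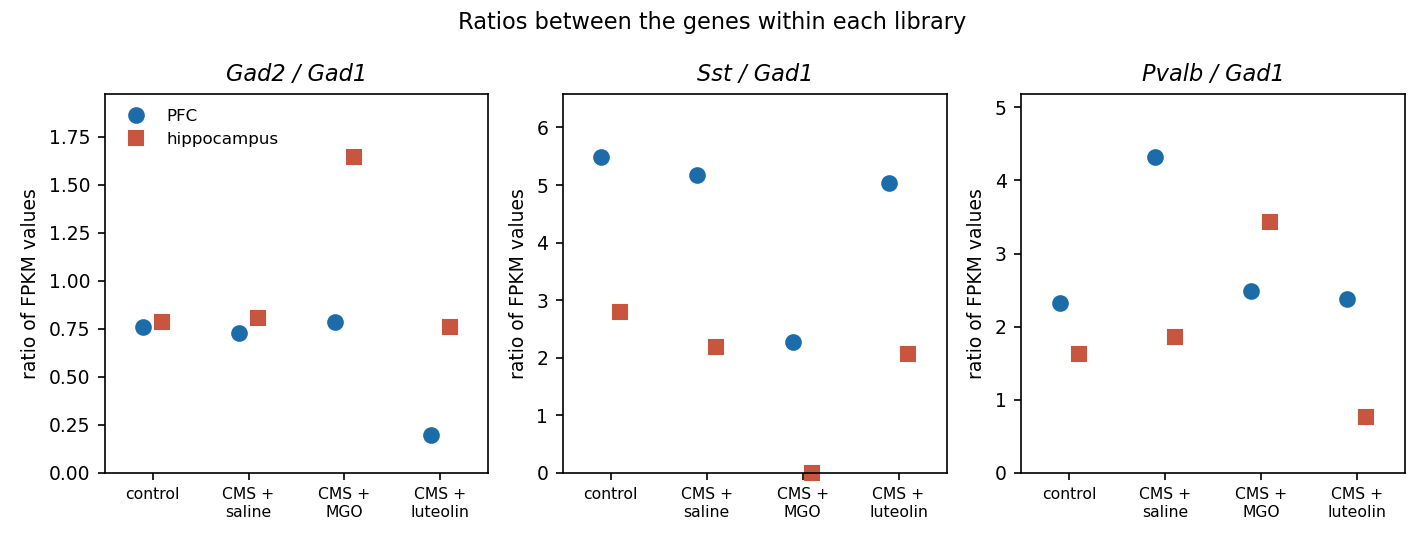
Ratios of FPKM values within each library (vertical axes, from 0) for Gad2 to Gad1, Sst to Gad1 and Pvalb to Gad1, by treatment, with blue circles for PFC and red squares for hippocampus and 1 library per point. Gad2 to Gad1 lies between 0.73 and 0.81 in 6 libraries and at 0.19 and 1.65 in the other two.

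Pvalb was at 74.2 FPKM in control PFC, 136 with CMS + saline, 115 with CMS + MGO and 85.6 with CMS + luteolin. In hippocampus it was at 66.5, 65.0, 64.1 and 51.6 FPKM. Every PFC library was above every hippocampus library, and so were the 4 PFC values of 11.9% of all 12155 genes. Pvalb was the steadiest of the 4 genes in hippocampus, with a range of 0.36 on the log2 scale that was below the median gene's 0.46. In PFC its range was 0.87, with CMS + saline highest and control lowest. Its mean was 103 ± 28.2 FPKM over the PFC libraries and 61.8 ± 6.85 FPKM over those of hippocampus (SD, n = 4 each). Per Gad1 transcript, Pvalb was between 2.33 and 2.48 in 3 PFC libraries and at 4.32 in CMS + saline PFC. In hippocampus this ratio was 1.62 in control, 1.85 in CMS + saline, 3.43 in CMS + MGO, where Gad1 was low, and 0.77 in CMS + luteolin, where Gad1 was high.

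In PFC Sst was at 175 FPKM in control, 163 with CMS + saline, 105 with CMS + MGO and 181 with CMS + luteolin. In hippocampus it was at 114 FPKM in control, 76.9 with CMS + saline, 0.0504 with CMS + MGO and 139 with CMS + luteolin. The MGO library was the lowest of the 4 in both tissues, and in hippocampus its Sst value was near 0. In that library 99.2% of the 12155 genes were at or above its value, whereas in the other 7 libraries 2.26% to 6.84% were. In the same library Gad1 was also low, at 18.7 FPKM against 40.9 in control and 35.1 in CMS + saline hippocampus, while Pvalb was at 64.1 against 66.5 and 65.0 FPKM and Gad2 at 30.8 against 32.2 and 28.3 FPKM. Its relative depth was 1.05, against 1.16 and 1.02 in the control and CMS + saline hippocampus. Of 1017 genes at 50 FPKM or above in the other 3 hippocampus libraries, 3 were at least 8-fold below the lowest of them in this library, namely Sst, ENSRNOG00000001436 (0.233 FPKM, against 283 or more in the other 3) and ENSRNOG00000024923 (5.2 FPKM, against 436 or more). The corresponding counts of genes at least 8-fold below were 1, 1 and 7 in the control, CMS + saline and CMS + luteolin hippocampus libraries, and 0 to 6 in PFC (limits chosen after the values were seen). Reads per gene are not given in the table, and the cause of the low value was not tested. The hippocampus mean was 82.6 ± 60.7 FPKM (SD, n = 4) with this library and 110 ± 31.3 FPKM (SD, n = 3) without it, and the PFC mean was 156 ± 34.9 FPKM (SD, n = 4). Sst per Gad1 was 5.04 to 5.49 in the control, CMS + saline and CMS + luteolin PFC and 2.07 to 2.80 in the corresponding hippocampus libraries. It was 2.27 in CMS + MGO PFC.

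PFC and hippocampus were then compared over the 4 pairs that share a treatment, on log2(FPKM + 1), with limma across the 12155 genes whose mean was 1 FPKM or more. None of the 4 genes passed the adjusted threshold of 0.05, which 15.9% of all genes did, and Pvalb alone had an unadjusted p under 0.05, as did 34.7% of all genes. Pvalb was higher in PFC in 4 of 4 pairs, by 0.16 in control, 1.06 in CMS + saline, 0.83 in CMS + MGO and 0.72 in CMS + luteolin. Its mean difference was 0.69 (SE 0.17, 95% interval 0.26 to 1.12, limma adjusted p = 0.0531). This value lies at the threshold, and it passed without the treatment block (limma adjusted p = 0.0429), after median-ratio scaling (0.0465) and with equal library sums (0.0399). It did not pass with a pseudocount of 0.1 (limma adjusted p = 0.0530), without the filter on low values (0.0708) or with a pair left out (0.0605 to 0.156). A mean difference of this size was reached by 13.9% of genes in either direction. An exact two-sided sign-flip test over the 4 pairs gave p = 0.125, the smallest it can give.

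Sst was also higher in PFC in 4 of 4 pairs, by 0.61 in control, 1.08 in CMS + saline and 0.38 in CMS + luteolin, and by 6.65 in CMS + MGO. Its mean was 2.18, a size that 0.609% of genes reached in either direction, and its error was large too (SE 1.17, 95% interval -0.83 to 5.19, limma adjusted p = 0.252). Without the CMS + MGO pair the difference was 0.69 (SE 0.18, limma adjusted p = 0.1). Without the CMS + MGO hippocampus library alone, in a fit without the block added after seeing the data, it was 0.51 (SE 0.26, limma adjusted p = 0.249). The large mean therefore rests on that library, while the direction is shared by all 4 pairs. How many of all genes share a direction over the 4 pairs was not counted. The shared direction is therefore not shown to be particular to Sst, or to Pvalb. The exact two-sided sign-flip test gave p = 0.125, the smallest it can give. The ranges of the tissues overlapped, since Sst in CMS + MGO PFC (105 FPKM) was below that in control hippocampus (114 FPKM).

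The decarboxylase genes leaned the other way in 3 of 4 pairs. Gad2 was lower in PFC by log2 differences of -0.40 in control, -0.29 in CMS + saline and -2.70 in CMS + luteolin, and higher by 0.23 in CMS + MGO. Its mean was -0.79 (SE 0.51, 95% interval -2.11 to 0.53, limma adjusted p = 0.33) and -0.15 (SE 0.16, limma adjusted p = 0.553) without the CMS + luteolin pair. Gad1 differed by -0.35 in control, -0.15 in CMS + saline, 1.26 in CMS + MGO and -0.89 in CMS + luteolin. Its mean was -0.03 (SE 0.36, 95% interval -0.97 to 0.90, limma adjusted p = 0.964), and its sign turned with the pair left out, from -0.46 without CMS + MGO to 0.25 without CMS + luteolin. An interval of this width includes a difference of nearly 2-fold either way, so Gad1 is not shown to be equal in the tissues.

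**Figure D3:**
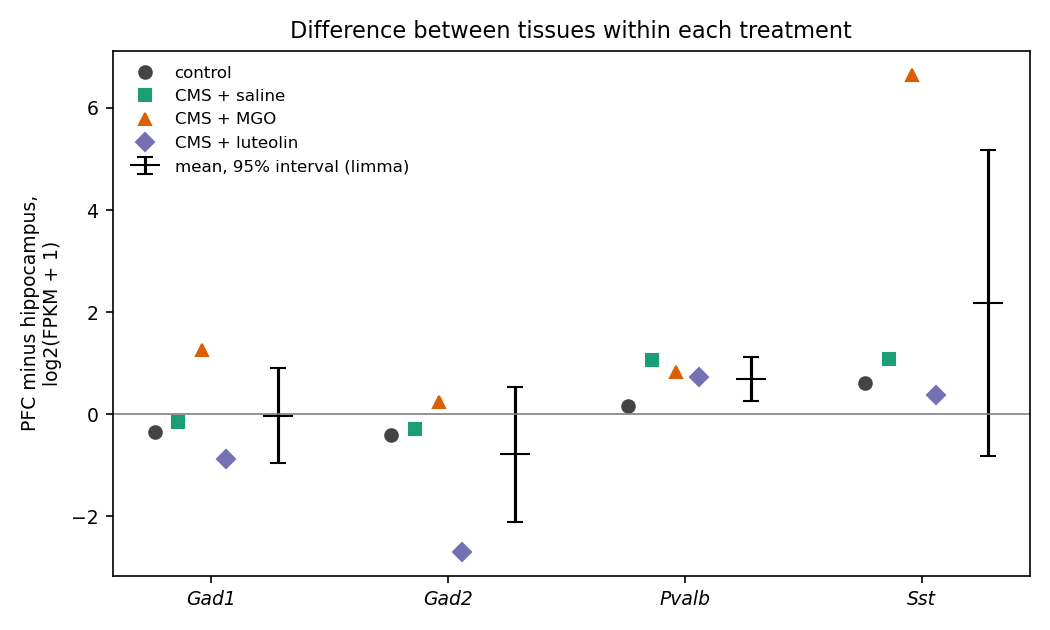
Difference between PFC and hippocampus in log2(FPKM + 1) (vertical axis, above 0 is higher in PFC) for each gene, with 1 point per treatment pair and, in black, the mean over 4 pairs with its 95% interval from limma. All points of Pvalb and Sst lie above 0, the CMS + MGO point of Sst at 6.65, and the CMS + luteolin point of Gad2 at -2.70.

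Stress was examined as CMS + saline against control within each tissue, with at least 2-fold (a difference of 1 in log2(FPKM + 1)) as the size counted. None of the 4 genes reached it in PFC, where 6.83% of all genes did, or in hippocampus, where 5.66% did. The largest of the 8 values was that of Pvalb in PFC, from 74.2 to 136 FPKM, a log2 difference of 0.87 that 8.2% of all genes reached in either direction. In hippocampus Pvalb differed by -0.03. Sst differed by -0.10 in PFC and by -0.57 in hippocampus, where it went from 114 to 76.9 FPKM. Gad1 and Gad2 differed by -0.01 and -0.07 in PFC and by -0.22 and -0.18 in hippocampus, sizes that 31.9% to 95.4% of all genes reached.

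MGO was examined by comparing the stressed group given MGO with the stressed group given saline, as single libraries. In PFC none of the 4 genes was 2-fold apart (6.51% of all genes), with Gad1 higher by 0.54 and Gad2 by 0.63, and Pvalb and Sst lower, at -0.25 and -0.63. In hippocampus Sst was 2-fold apart, 1 of the 4 genes (6.01% of all genes), with a log2 difference of -6.21 that 0.115% of all genes reached. The size of this difference is set by the pseudocount, and with 0.1 in place of 1 it was -9.00. Gad1 differed by -0.87 there, Gad2 by 0.12 and Pvalb by -0.02. Gad1 was thus higher with MGO in PFC and lower in hippocampus, and this difference between tissues was not tested.

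For luteolin the same CMS + saline libraries served as the reference, so both drug comparisons share them. In PFC Gad2 was 2-fold apart, 1 of the 4 genes (6.52% of all genes), at -1.58, while Gad1 differed by 0.18, Pvalb by -0.67 and Sst by 0.15. In hippocampus none was (7.52% of all genes), although Gad1, Gad2 and Sst were all higher, by 0.92, 0.83 and 0.85. Pvalb was lower there, at -0.33. With the libraries scaled to the same sum, Gad1 (1.08) and Sst (1.01) passed 2-fold, so the count of none rests on the scaling. These hippocampus values come from the library that differed most from the others of its tissue, and the part of this in the 3 higher values was not tested.

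**Figure D4:**
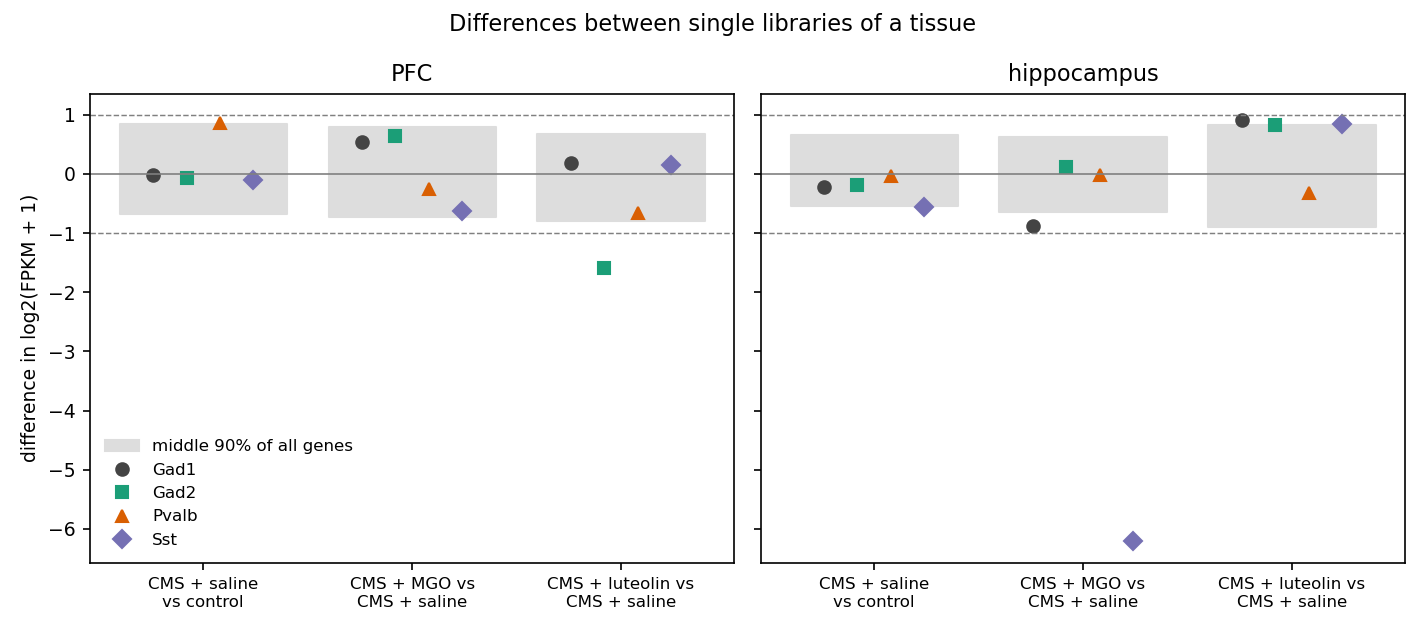
Difference in log2(FPKM + 1) (vertical axis) between single libraries of PFC (left) and hippocampus (right) for 3 comparisons of treatments, with 1 symbol per gene, the middle 90% of 12155 genes as grey bars and 2-fold as dashed lines. Sst with MGO in hippocampus, at -6.21, and Gad2 with luteolin in PFC, at -1.58, lie past the dashed lines.

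Against the control, which shares the description code of the drug libraries, Sst in hippocampus and Gad2 in PFC were again 2-fold apart and Gad1 in hippocampus was added. With MGO none of the 4 genes was 2-fold apart in PFC (6.86% of all genes), and Gad1 (-1.09) and Sst (-6.78) were in hippocampus (5.68%). With luteolin Gad2 was in PFC (-1.65, 6.3% of all genes) and none was in hippocampus (6.61%). Between luteolin and MGO, Gad2 was 2-fold apart in PFC (-2.22, 6.37% of all genes), and Gad1 (1.79) and Sst (7.06) were in hippocampus (8.11%). In all, 8 of the 48 differences were at least 2-fold, against 5.66% to 8.11% of all genes per comparison. They were 3 of Gad2 in PFC, each with the CMS + luteolin library, and 2 of Gad1 and 3 of Sst in hippocampus, each with the CMS + MGO library. Pvalb was in none of them. The shares cover all genes with a mean of 1 FPKM or more, and genes as abundant as these 4 were not counted apart. The differences share libraries, so the 8 are no separate observations. Those of Gad2 all contain its low value in CMS + luteolin PFC, and those of Sst its low value in CMS + MGO hippocampus. Of those of Gad1, the larger sets the lowest hippocampus value (MGO, 18.7 FPKM) against the highest (luteolin, 67.3 FPKM).

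The genes most like each of the 4 were sought by Pearson's r over the 8 libraries in log2(FPKM + 1), among 12154 others. The 8 libraries share tissues and, per the protocol, at least in part rats, and with so few of them high values are common, so these are descriptions. For Gad1 they were ENSRNOG00000052977 (r = 0.97) and ENSRNOG00000049989 (r = 0.969), and for Gad2 ENSRNOG00000016356 (r = 0.97) and ENSRNOG00000049019 (r = 0.969). For Pvalb they were ENSRNOG00000012879 (r = 0.982) and ENSRNOG00000003330 (r = 0.981), and for Sst ENSRNOG00000017720 (r = 0.987) and ENSRNOG00000055286 (r = 0.986). ENSRNOG00000016356 also led for Gad2 over deviations from the tissue means (r = 0.992), and, like Gad2, it was lowest in CMS + luteolin PFC (58.5 FPKM) and highest in CMS + luteolin hippocampus (185 FPKM), with 100.5 to 153 FPKM in the other 6. ENSRNOG00000020551 led for Sst over those deviations (r = 0.99), with 0.886 FPKM in CMS + MGO hippocampus and 26.1 to 33.3 FPKM in the other 7. In the same library ENSRNOG00000017720 was at 1.11 FPKM, against 7.35 to 10.2 in the other 7. ENSRNOG00000055286 was at 0.617 FPKM there, against 4.25 to 6.22. The likeness of these IDs to Sst thus rests mainly on that library. For Gad1 and Pvalb the leaders over deviations were ENSRNOG00000013953 (r = 0.978) and ENSRNOG00000019070 (r = 0.991). ENSRNOG00000013953 was near 0 in PFC (0.0314 to 0.147 FPKM) and at 1.98 to 3.36 FPKM in hippocampus, so its likeness to Gad1 rests on the hippocampus libraries. Among the 4 genes themselves, Sst and Gad1 were the most alike (r = 0.7), both lowest in CMS + MGO hippocampus, and Gad1 ranked 243 among the genes most like Sst. Gad2 ranked 3558 among the genes most like Gad1 (r = 0.314).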

How the data were processed

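RNA-seq values of 8 libraries (PFC and hippocampus under 4 treatments) were used. The authors deposited a table of genes by libraries, whose values were treated as FPKM. The unit is inferred from the values, which are not whole and sum to 300281 to 352740 per library. FastQC 0.11.5, HISAT2 2.0.4, StringTie 1.2.4 and Rnor_6.0 (rn6) are named per the submitters' processing notes, without settings. The annotation release is not given in the sources used here. Columns were assigned by their titles, and none was left over.

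The 4 genes and the lists were chosen with earlier results of these data known. The rule for named genes took the 4 genes, the 2 IDs most like each, and lists of other inhibitory neuron genes and cell type markers. These lists were not evaluated, because the symbol table (47357 genes) held no Ensembl IDs and matched 0 IDs.

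The tissue comparison used limma 3.58.1 (R 4.3.3) with a variance trend, two-sided tests, a block for treatment (3 residual df) and Benjamini-Hochberg adjustment over the 12155 genes whose mean was 1 FPKM or more, on log2(FPKM + 1), a scale that understates differences of low values. The block stands for the rat: the protocol takes both tissues from each rat it names. Across genes, deviations from the tissue means correlated within treatments with r = 0.0458 for MGO, 0.114 for luteolin, 0.12 for the control and 0.175 for stress with saline. SEs draw in part on other genes. In a simulation of the tissue comparison over 12155 genes, the fit called 52 of 100 genes given a log2 change of 1, 88 of 100 given a change of 2, and 2 unchanged genes. The simulated libraries were drawn independently, and each gene's spread was held to a cap that the spreads of Gad1, Gad2 and Sst exceed. These counts therefore do not give the power of the fit for those genes. Treatments were compared as differences between single libraries, with no test. Relative depth is the most common ratio, gene by gene, of values under 0.2 FPKM in control PFC to those in the library. Alternatives were another pseudocount, scaling, filter, fold size, no block and each pair left out. Other steps used Python 3.11.15 (pandas 2.3.3, numpy 2.4.6, matplotlib 3.10.9, scipy 1.17.1).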

Additional observations from a re-analysis of the deposited data

Results flagged for a closer look

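Pvalb in the CMS + luteolin hippocampus library, at 51.6 FPKM, was below the other 3 hippocampus libraries (64.1 to 66.5 FPKM). The difference was small, as its hippocampus range was 0.36 on the log2 scale, against 0.46 for the median gene. Its gap in FPKM was 0.84 of the whole range, just above the limit of Dixon's test for 4 values. Of 8 groups of 4 libraries examined, 1 was marked in this way. Chance marks about 1 in 20 where the 4 values are draws from 1 population. Here each group held 4 treatments and the groups shared libraries, so that rate need not apply. Gad2 in the CMS + luteolin hippocampus library, the highest of its tissue at 50.9 FPKM, had a gap of 0.8285 of the range, just under the limit. The low Sst value of the CMS + MGO hippocampus library was not marked in FPKM (0.5525 of the range). On the log2(FPKM + 1) scale, looked at after the values were seen, its gap was 0.88 and past the limit, as was that of Pvalb (0.856), and Gad2 had 0.783, so the scale decides whether Sst is marked.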

How the results depend on the processing

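With no replicate block, the difference of Pvalb between PFC and hippocampus stayed at 0.69 and passed the threshold (limma adjusted p = 0.0429), and it did so at 0.73 with median-ratio size factors (0.0465) and at 0.68 with the same sum in each library (0.0399). The block changed no other call among the 4 genes. The cause was not tested. Over all limma alternatives the adjusted p ranged from 0.0399 to 0.156 for Pvalb, 0.1 to 0.336 for Sst, 0.255 to 0.553 for Gad2 and 0.181 to 0.995 for Gad1. The difference of Gad1 turned to 0.011 with median-ratio size factors, and leaving out a pair gave -0.46 to 0.25. With a pair left out, the range was -1.13 to -0.15 for Gad2, 0.57 to 0.87 for Pvalb and 0.69 to 2.78 for Sst, and 259 to 851 genes were called in place of 1937, with fewer libraries in the fit. A pseudocount of 0.1 and no filter on low values left the sign and the side of the threshold of the 4 genes in the tissue comparison as they were, but with a pseudocount of 0.1 the mean for Sst moved from 2.18 to 2.88. Its hippocampus differences moved from -6.21 to -9.00 (MGO against CMS + saline), -6.78 to -9.57 (MGO against control) and 7.06 to 9.85 (luteolin against MGO), since these sizes rest on the pseudocount. Of the 48 treatment differences, 8 were at least 2-fold, 10 with equal sums (Gad1 and Sst for luteolin against CMS + saline in hippocampus were added) and 22 at 1.5-fold, and none changed sign under the 3 settings of scaling and pseudocount. At 1.5-fold, 1265 to 2683 of all genes differed per comparison (10.4% to 22.1%), against 688 to 986 at 2-fold (5.66% to 8.11%). With equal sums the share at 2-fold was 5.62% to 8.25%. Reads per gene are unknown, so counting error could not be given.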

Other observations

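The values of Gad1 carry more than 6 decimals, as do those of 3531 of the 12155 genes tested (29.0%), while those of Gad2, Pvalb and Sst carry at most 6. The sources used here do not say how these values were made. The summed level of Gad1 and Gad2 was 42.9 to 82.4 FPKM in PFC, lowest with CMS + luteolin and highest with CMS + MGO. In hippocampus the sum was 49.5 to 118 FPKM, lowest with CMS + MGO and highest with CMS + luteolin, so the order of both drugs was opposite in the tissues. With 1 library per group this was not tested.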
